A study of Rattus norvegicus with 45 samples.

Results

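Heroin was compared with saline in 14 rats that carried the same virus and differed in what they had self-administered. All were wild-type male Sprague-Dawley rats that underwent 10 d of heroin or saline self-administration (SA), received a viral vector for the unmutated histone variant H3.3 (H3.3 WT) in the ventral tegmental area (VTA) on day 11, and were taken after 30 d of abstinence. The rats, 7 of each drug group, were chosen by their labels, so that the comparison used 14 of the 45 libraries and tested 20233 of the 32883 genes in the table, those above the table's lowest value in at least 7 of the 14 libraries. The other groups of the study, saline and heroin rats with an empty vector (7 and 8 rats) or with H3.3Q5A, in which glutamine 5 of H3.3 is replaced by alanine (7 and 8 rats), entered the same fit. All vectors carried a GFP tag that guided the dissection, and punches were taken from the infected area of single rats without pooling. H3.3 WT rats therefore share surgery, virus and exogenous H3.3, and the comparison shows the heroin effect in their presence.

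The VTA holds the dopamine neurons that project to the striatum, next to GABA and glutamate neurons, and is crossed by myelinated fibers and by vessels that run in from the ventral surface of the brain. Histone H3.3 is the replication-independent form of H3. It can be modified on glutamine 5 by dopamine, a reaction that transglutaminase 2 carries out. The vessels of the brain are wrapped by smooth muscle cells and pericytes, and they enter the tissue together with fibroblasts that continue from the meninges and that make collagen, basement membrane and other extracellular matrix (ECM).

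The deposited values, called levels here, are counts after a variance-stabilizing transformation to a log2-like scale, on which the lowest value stands for a count of 0. A fold change is a difference of levels, which understates the change of genes with few reads. Undoing the transformation returned whole reads for 100% of the values, and the libraries of the 14 rats held 28228711 to 71104049 reads on genes. The log2 of that total was 0.21 lower in heroin than in saline H3.3 WT rats (SD 0.28 and 0.52, n = 7 each, two-sided exact permutation test p = 0.36). The table carries Ensembl identifiers, and 1995 of the tested genes (9.86%) could be given a name of their own. The readable names come from a table that the study ordered by its contrast of saline H3.3 WT vs. saline empty rats, and 93.0% of the named genes, against 9.89% of the unnamed ones, had an unadjusted limma p under 0.05 in that contrast. Named genes were thus chosen in part for their values in the saline H3.3 WT libraries, which are also the controls here. Of 29 listed dopamine neuron genes only Adcy5 had a name, so that the dissection could not be checked against VTA markers.

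Among the 7 saline H3.3 WT libraries, that of rat 27 stood with the heroin rats in the genes that fell after heroin. In the 573 genes that were downregulated after heroin, rat 27 had the lowest level of its group in 492 and lay below the midpoint of the group means in 498, while each of the other saline rats lay below that midpoint in 10 to 66. The selection of these genes favors the other saline rats above the midpoint. Over the 19 named markers of myelin and mature oligodendrocytes the mean level of rat 27 was 13.80. That lies within the ranges of both groups, 13.46 to 14.41 in heroin and 13.08 to 14.13 in saline rats. The library of heroin rat 1 was the highest of its group in 269 of these genes. A saline library of rat 48 has conflicting labels, since its title gives the H3.3Q5A vector and its treatment the H3.3 WT vector. It was not used. Results are given with these libraries as labeled, and their dependence on rats 27 and 48 is stated beside the counts.

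Heroin vs. saline SA in H3.3 WT rats identified 651 DEx genes (3.22% of those tested), defined by an adjusted p under 0.05 in limma with Benjamini-Hochberg correction and a log2 fold change beyond 0.2. Of these, 573 were downregulated (2.83%) and 78 were upregulated (0.386%). The downregulated genes fell by 0.55 at the median and, at the most, fell by 2.95 on the log2 scale, 87 of them by more than 1 and 250 by less than 0.5. In 556 of the 573, each of the 7 heroin rats was below the saline mean, a count that the selection of these genes favors. The upregulated genes rose less, by a median of 0.28, and only 7 rose by more than 0.5. The median fold change of all tested genes was 0.0036, and 3408 genes (16.8%) had an unadjusted p under 0.05. Levels of the 7 heroin rats all lay below those of the 7 saline rats in 49 genes (0.242%), and all above them in 10 (0.0494%).

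Without rat 27 the count rose to 1351 DEx genes, with 1011 downregulated and 340 upregulated. With rat 48 counted as saline H3.3 WT, as its treatment says, it was 201, with 196 downregulated and 5 upregulated. Counted as saline H3.3Q5A, as its title says, it left 605, with 547 downregulated and 58 upregulated. Centring each library on its median shifted the split of directions, to 449 downregulated and 245 upregulated genes, so that upregulated genes made up 35.3% of DEx genes, more than the 78 of 651 without centring.

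**Figure D1:**
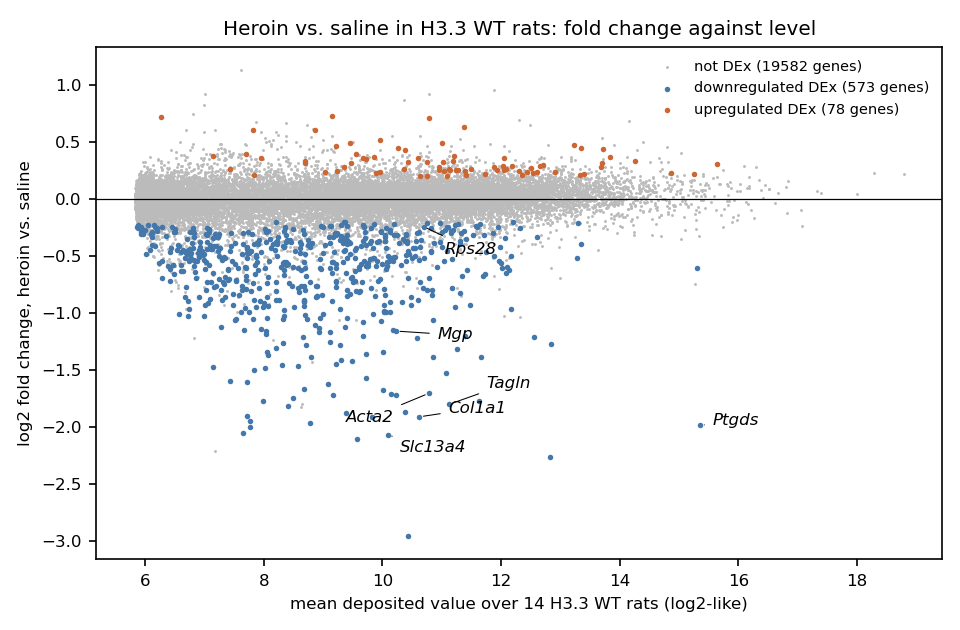
Log2 fold change of heroin vs. saline H3.3 WT rats (vertical axis) against the mean level of the 14 rats (horizontal axis, log2-like), with 1 point for each of the 20233 tested genes. The 573 downregulated DEx genes (blue) reach down to -2.95 while none of the 78 upregulated ones (orange) exceeds 0.73.

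Of the 651 DEx genes, 135 had a name, 129 downregulated and 6 upregulated. The groups described next come from lists of cell type markers and pathways, of which only the named members could be looked up. Names depend in part on the values of saline H3.3 WT rats, the controls here. Counts of members and list medians are therefore descriptions of the named members only. In bulk tissue, fewer cells of a type and less RNA per cell cannot be told apart.

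The steepest falls among named DEx genes were in genes of fibroblasts that line the meninges and vessels. All 11 named members of the 30 listed meningeal and perivascular fibroblast markers were downregulated, with a median of -1.21 against 0.0036 for all tested genes. Downregulated genes made up 2.83% of all tested genes and 6.47% of the named ones (129 of 1995). The choice of names favors genes that stand out in saline H3.3 WT rats, and the other listed markers could not be seen. The 11 fibroblast markers ranged from -0.93 in Slc13a3 to -2.07 in Slc13a4. All 11 were also called without rat 27, and 9 with rat 48 counted as saline H3.3 WT. The summed reads of the 11 genes, scaled for depth, ran from 15414 to 50550 in heroin and from 29677 to 169139 in saline rats, where the lowest value belongs to rat 27. Most of these reads belong to Ptgds, so the sum describes mainly that gene.

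Ptgds, on chromosome 3 at 2686122 to 2689084 (rn6), encodes the lipocalin-type prostaglandin D synthase of the leptomeninges and choroid plexus and was the most abundant of them. Its level was 13.46 at the lowest, 14.30 at the median and 15.32 at the highest in heroin rats, and 14.49, 16.71 and 17.14 in saline rats. All saline rats but rat 27, which lay among the heroin rats, were above every heroin rat. Ptgds fell by 1.99 ± 0.38 (SE, n = 7 and 7, limma adjusted p = 0.0028), or 4.24-fold in depth-scaled reads.

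Slc13a4, a sulfate transporter of the meninges, ran from 8.16 over a median of 9.17 to 9.92 in heroin rats and from 9.12 over 11.63 to 11.71 in saline rats. Again only rat 27 reached into the heroin range. It fell by 2.07 ± 0.42 (SE, n = 7 and 7, limma adjusted p = 0.00305), the most of any named DEx gene. The transporters Slc13a3, for dicarboxylates, and Slc22a8, for organic anions, fell by 0.93 and 0.99 (adjusted p = 0.016 and 0.0088).

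Col1a1, on chromosome 10 at 82745800 to 82762789 (rn6), encodes the main chain of type I collagen and was the only named gene of 22 listed collagens. Heroin rats held levels of 8.77 to 10.64 with a median of 9.71, and saline rats 9.92 to 12.22 with a median of 11.76. The 2 ranges overlapped through rat 27 at 9.92, below heroin rats 1 and 3. The difference was -1.91 ± 0.38 (SE, n = 7 and 7, limma adjusted p = 0.0029).

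The transcription factors Foxc1, Foxc2 and Foxd1, forkhead proteins that pattern the meninges in development, moved with these genes. Foxc2 fell by 1.50, Foxc1 by 1.01 and Foxd1 by 0.94 (limma adjusted p = 0.003, 0.0038 and 0.0027). For Foxd1 the groups did not overlap, with heroin rats at 7.04 to 8.01 and saline rats at 8.05 to 8.97. The secreted proteins Mgp, which inhibits mineralization of matrix, and Igfbp2, which binds insulin-like growth factors, fell by 1.16 and 1.32 (adjusted p = 0.0027 and 0.014). Gjb2, the gap junction protein connexin 26, fell by 1.21 (adjusted p = 0.0027).

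**Figure D2:**
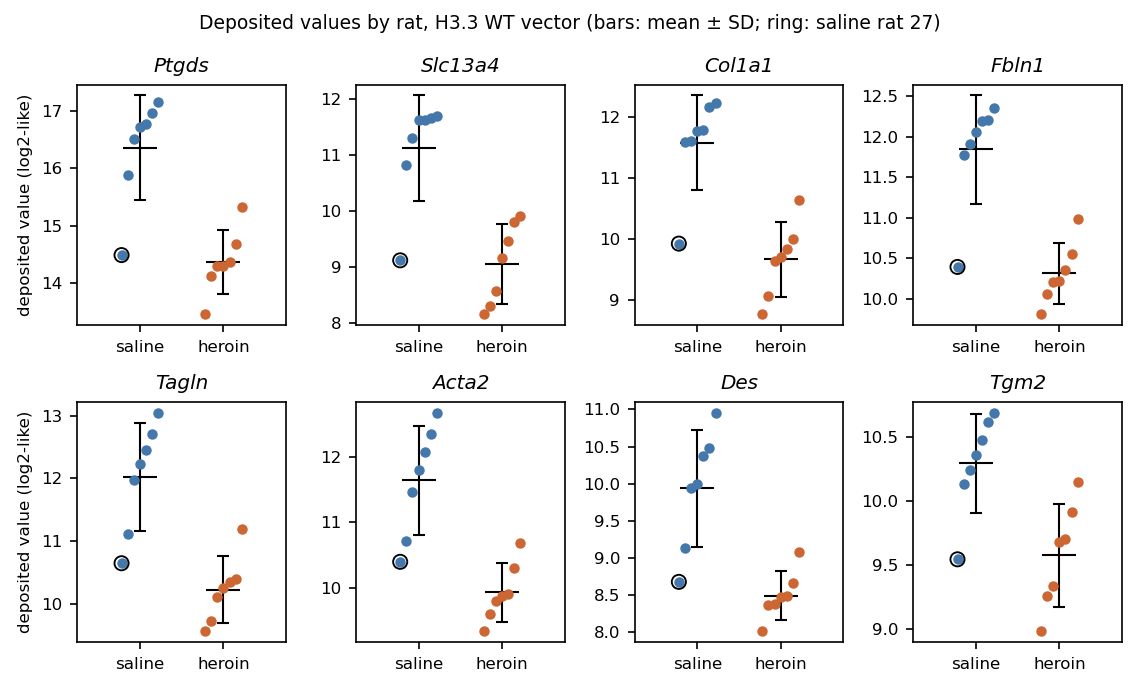
Levels (vertical axis, log2-like) of 8 genes in the 7 saline (blue) and 7 heroin (orange) H3.3 WT rats, 1 point for each rat, with group mean ± SD. Saline rat 27, ringed, lies within the heroin range in each of the 8 genes, while the other saline rats lie mostly above it.

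Contractile genes of the vessel wall fell nearly as far. Of the 15 listed pericyte and smooth muscle markers 8 had a name. All 8 were lower after heroin, 6 of them DEx, beside 6.47% of all named genes, with a median of -1.14. Their summed depth-scaled reads ran from 5387 to 10016 in heroin and from 8017 to 24507 in saline rats. Notch3 and Anpep, at -0.34 and -0.42, were the members that did not pass the test. Without rat 27 all 8 passed, and with rat 48 counted as saline H3.3 WT 5 did.

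Acta2, the smooth muscle actin, on chromosome 1 at 252537614 to 252550394 (rn6), ran from 9.34 over a median of 9.88 to 10.69 in heroin rats and from 10.40 over 11.79 to 12.67 in saline rats. Only heroin rat 1 was above the lowest saline rat, rat 27. Acta2 fell by 1.70 ± 0.34 (SE, n = 7 and 7, limma adjusted p = 0.00305).

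Tagln, the actin-binding protein transgelin, ranged from 9.56 to 11.20 in heroin rats and from 10.65 to 13.05 in saline rats, with medians of 10.26 and 12.24. Heroin rat 1 lay above the 2 lowest saline rats, 27 and 50. Tagln fell by 1.80 ± 0.35 (SE, n = 7 and 7, limma adjusted p = 0.0028). Cnn1, or calponin, fell by 1.61, and Des, the muscle intermediate filament desmin, by 1.44. Mylk, the kinase that phosphorylates myosin light chain, fell by 0.84 (adjusted p = 0.00305, 0.0027 and 0.00305). Pdgfrb, the PDGF receptor by which pericytes are recognized, moved least of the 6 DEx members, at -0.38 (adjusted p = 0.039). Its call was lost in 10 of 14 fits that left out 1 rat, with limma adjusted p up to 0.15.

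Other genes of the contractile apparatus lay outside the lists and the naming rule and were chosen after their values were seen. Actg2, the enteric smooth muscle actin, fell by 1.60 on the level scale, from a mean of 249 to 23 depth-scaled reads (10.7-fold). Myl9, a regulatory myosin light chain, fell by 1.22, Flna, the actin crosslinker filamin A, by 0.96, and Tpm2, a tropomyosin, by 0.91. Pln, or phospholamban, which restrains the calcium pump of the muscle reticulum, was among the 10 named genes of lowest p and fell by 1.18 (limma adjusted p = 0.0027).

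Promoters of members that moved together were read from the RefSeq promoter table for GRCr8, from 250 bases before to 50 bases after each gene's start. Among downregulated genes with a name, 79 of 129 had 1 promoter there. The letters CATTCC, searched on both strands and thus also as GGAATG, stand for the core that TEAD factors recognize. They were found in 21 of these 79 promoters (26.6%), in 156 of 1411 promoters of all named tested genes (11.1%) and in 13.7% of the 24206 promoters of the whole table. TATAAA was in 8 of the 79 (10.1%), in 4.61% of the promoters of named tested genes and in 9.25% of the whole table. The strict consensus of the CArG box, the element of serum response factor, was in 0 of the 79, in 0.85% of the named tested genes and in 1.65% of the whole table. Boxes that depart from that consensus by a base were not counted, so the CArG search does not say that these promoters lack such an element. These shares are a description of letters, and the motifs were chosen with the results known. Of the fibroblast and smooth muscle members with a promoter, 8 and 6 genes, CATTCC was in 1 and 2. Those of the 3 genes are shown with the promoter of Ccn1, a secreted matrix protein that also fell, with the match in capitals and all else in lower case, 5′ to 3′ on the strand of the gene, which is the minus strand for each.
Acta2 (chr1:241172454-241172753, match beginning 196 bases before the start): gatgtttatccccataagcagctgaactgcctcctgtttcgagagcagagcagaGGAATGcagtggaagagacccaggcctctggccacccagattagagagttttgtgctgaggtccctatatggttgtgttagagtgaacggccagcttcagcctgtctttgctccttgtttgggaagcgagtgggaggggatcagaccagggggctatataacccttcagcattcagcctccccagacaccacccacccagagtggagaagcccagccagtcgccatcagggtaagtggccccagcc
Mylk (chr11:79498525-79498824, match beginning 36 bases before the start): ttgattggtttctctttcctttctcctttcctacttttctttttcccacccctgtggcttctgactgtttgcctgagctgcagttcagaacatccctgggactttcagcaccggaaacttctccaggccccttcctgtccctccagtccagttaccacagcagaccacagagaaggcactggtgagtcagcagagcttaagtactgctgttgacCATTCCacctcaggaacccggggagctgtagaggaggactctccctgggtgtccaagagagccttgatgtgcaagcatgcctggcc
Slc13a4 (chr4:64955937-64956236, match beginning at base 12 after the start): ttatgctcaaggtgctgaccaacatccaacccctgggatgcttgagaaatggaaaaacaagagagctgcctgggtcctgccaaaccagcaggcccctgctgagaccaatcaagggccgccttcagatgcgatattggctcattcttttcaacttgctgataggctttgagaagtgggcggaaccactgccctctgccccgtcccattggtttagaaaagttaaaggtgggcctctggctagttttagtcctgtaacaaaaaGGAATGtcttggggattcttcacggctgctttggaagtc
Ccn1 (chr2:237225640-237225939, match beginning 113 bases before the start): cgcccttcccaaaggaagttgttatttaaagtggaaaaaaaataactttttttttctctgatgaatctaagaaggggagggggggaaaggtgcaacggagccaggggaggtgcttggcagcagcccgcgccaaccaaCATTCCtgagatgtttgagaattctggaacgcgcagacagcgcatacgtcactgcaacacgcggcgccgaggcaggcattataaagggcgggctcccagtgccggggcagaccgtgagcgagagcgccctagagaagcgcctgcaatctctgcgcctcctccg

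Genes for the matrix itself followed. All 9 named members of the 42 listed matrix glycoproteins and proteoglycans were lower after heroin, 7 of them DEx, beside 6.47% of all named genes, with a median of -0.62. Mgp and Igfbp2, already counted among the fibroblast markers above, are among these 7, so the lists are not separate groups of genes. Fbln1, the elastic fiber and basement membrane protein fibulin 1, had levels of 9.81 to 10.98 in heroin rats with a median of 10.22, and 10.39 to 12.35 in saline rats with a median of 12.06. Except for rat 27, every saline rat was above every heroin rat. Fbln1 fell by 1.53 ± 0.27 (SE, n = 7 and 7, limma adjusted p = 0.0027).

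Thbs2, a thrombospondin, fell by 1.11. The basement membrane components Lamb2, a laminin chain, and Nid2, a nidogen, each fell by 0.61, and fibronectin, Fn1, by 0.62 (limma adjusted p = 0.0032, 0.0043, 0.017 and 0.038). For Nid2 the groups did not overlap, at 8.57 to 9.17 in heroin and 9.19 to 9.84 in saline rats. The call of Fn1 was lost in 8 of 14 fits that left out 1 rat.

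Of 9 named members of the 35 listed matrix remodeling genes, 8 were lower and 4 were DEx, beside 6.47% of all named genes, with a median of -0.20. Loxl1, which crosslinks elastin, fell by 1.12, the membrane-bound metalloprotease Mmp14 by 0.81 and the collagen chaperone Serpinh1 by 0.50 (limma adjusted p = 0.0049, 0.025 and 0.005). The call of Mmp14 was lost in 6 of 14 fits that left out 1 rat. Serpinh1 separated the groups, with heroin rats at 11.47 to 11.72 and saline rats at 11.77 to 12.32.

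The fourth was Tgm2, the transglutaminase that dopaminylates H3 at glutamine 5. Levels ran from 8.98 over a median of 9.67 to 10.14 in heroin rats and from 9.54 over 10.36 to 10.69 in saline rats. Heroin rats 1, 11, 20 and 51 lay above saline rat 27, so that the groups overlapped. Tgm2 fell by 0.72 ± 0.21 (SE, n = 7 and 7, limma adjusted p = 0.038), 1.73-fold in depth-scaled reads. This call was lost when any one of saline rats 4, 8, 44, 49 or 50 or of heroin rats 3, 9 or 38 was left out, with adjusted p up to 0.12, and when rat 48 was counted as saline H3.3 WT. H3f3a and H3f3b, which encode H3.3, had no name in the table, so that neither the endogenous gene nor the transgene was checked.

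Signaling genes of the TGF-beta and CCN families were lower in 10 of the 11 named of 26 listed members, and 3 were DEx, with a list median of -0.37. Of all 1995 named genes, 1002 were lower and 6.47% were downregulated DEx genes. The bone morphogenetic proteins Bmp7 and Bmp6, ligands that are made in the meninges, fell by 1.46 and fell by 1.36, and Ccn1 fell by 0.60 (limma adjusted p = 0.0032, 0.0028 and 0.036). The call of Ccn1 was lost in 8 of 14 fits that left out 1 rat. Id3, an inhibitor of basic helix-loop-helix factors that BMP signals induce and that was listed as an astrocyte marker, fell by 0.88 (adjusted p = 0.0028). It was the only DEx gene of 4 named astrocyte markers, whose summed depth-scaled reads overlapped, at 68656 to 95139 in heroin and 69279 to 92479 in saline rats.

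The endothelial list moved little. Of 9 named members of 20, 8 were lower, but only Cdh5, the adhesion protein VE-cadherin, was DEx, at -0.52 (limma adjusted p = 0.039), and the list median was -0.15. Downregulated DEx genes made up 6.47% of all named genes. The summed reads were 9143 to 12171 in heroin and 9776 to 17599 in saline rats. Cdh5 lost its call in 8 of the 14 fits that left out 1 rat.

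Blood genes were lower and differed widely among saline rats. All 6 named of 11 listed members were lower, between -0.52 and -1.21, and 3 were DEx, beside 6.47% of all named genes. These were the alpha globins Hba-a1, Hba-a2 and Hba-a3, at -1.21, -1.20 and -0.97 (limma adjusted p = 0.046, 0.046 and 0.017). Leaving out 1 rat at a time, Hba-a1 and Hba-a2 lost their calls in 11 and 12 of 14 fits, with adjusted p up to 0.17, and Hba-a3 in 1. The 3 alpha globins are near-identical copies and are not independent. Multiply aligned reads were removed, so their levels rest on the remaining reads. Hba-a1 ran from 11.36 over a median of 11.74 to 12.82 in heroin rats and from 11.30 over 13.17 to 15.21 in saline rats, so that the ranges overlapped. Summed reads of the list were 6282 to 15331 in heroin and 5640 to 79590 in saline rats. The pituitary hormone genes Cga and Tshb, 2 named of 12 listed, were nearly absent in heroin rats and were not DEx, with summed reads of 14 to 74 in heroin and 41 to 1397 in saline rats. Cga differed by -2.21 ± 0.74 (SE, n = 7 and 7, limma adjusted p = 0.091), and past the threshold without rat 27 (-2.52, adjusted p = 0.032). The part of fibroblast, vessel, blood or pituitary material in the punches in the other falls was not tested.

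**Figure D3:**
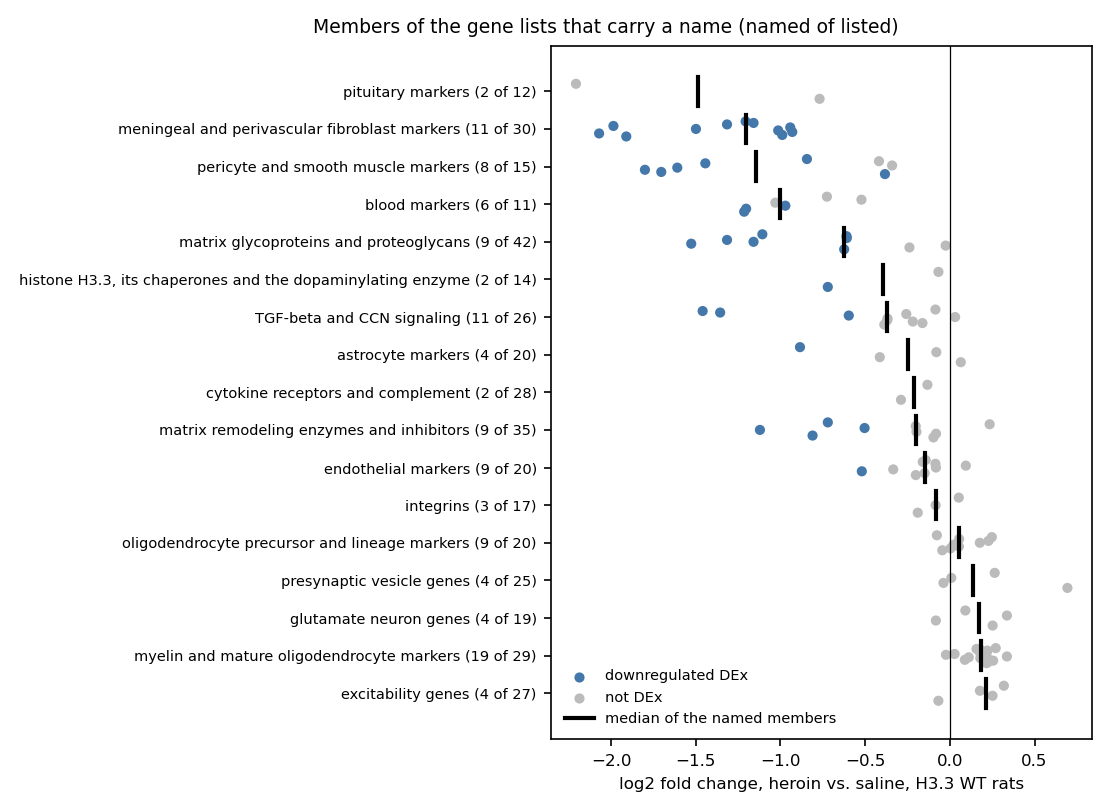
Log2 fold changes of heroin vs. saline H3.3 WT rats (horizontal axis) for the named members of each list with 2 or more of them, 1 point a gene, blue where DEx and gray where not, with a bar at the list median. The fibroblast, smooth muscle and matrix glycoprotein lists lie left of 0 with most members DEx, while no member of the myelin, synaptic or excitability lists is DEx. Mgp and Igfbp2 belong to both the fibroblast and the matrix glycoprotein list.

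The DEx genes of lowest p included some outside these groups. Eif4ebp1, which holds back cap-dependent translation, ranged from 7.69 to 7.97 in heroin and from 7.92 to 8.63 in saline rats, with medians of 7.81 and 8.37. Its ranges overlapped through rat 27, and it fell by 0.55 ± 0.09 (SE, n = 7 and 7, limma adjusted p = 0.0027). Tubb6, a beta tubulin, fell by 0.91, the amino acid transporter Slc6a20 fell by 1.67, the membrane protein Ifitm2, of an interferon-induced family, by 0.80 and Bcat2, the mitochondrial branched-chain aminotransferase, by 0.52 (each at an adjusted p of 0.0027). Rps28, a protein of the small ribosomal subunit, fell by only 0.24, with no overlap between 10.44 to 10.66 in heroin rats and 10.68 to 10.96 in saline rats. Its call was lost after median centring. The 2 unnamed genes of lowest p, ENSRNOG00000014672 and ENSRNOG00000019858, fell by 0.97 and 0.39 (adjusted p = 0.0027).

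Named upregulated genes were few and small in size. Tsga10, a centrosomal protein of the sperm tail, rose by 0.31 and Ndst3, a heparan sulfate sulfotransferase, by 0.33 (limma adjusted p = 0.018 and 0.028). The cohesin subunit Smc1a rose by 0.23, Tdrkh, a tudor protein of the piRNA pathway, by 0.21, Ccdc82 by 0.33 and LOC102555727 by 0.31 (adjusted p = 0.024, 0.037, 0.041 and 0.049). In each of the 6 genes all 7 heroin rats were above the saline mean, which their selection favors, yet the ranges overlapped. Each of the 6 lost its call with rat 48 counted as saline H3.3 WT and in 3 to 11 of the 14 fits that left out 1 rat. ENSRNOG00000009577 and ENSRNOG00000029784, the unnamed genes of lowest p, rose by 0.60 and 0.28 (adjusted p = 0.0034 and 0.004).

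Named myelin genes were mostly higher after heroin without reaching the threshold. Of the 19 named of 29 listed markers of myelin and mature oligodendrocytes, 18 were higher, beside 993 of all 1995 named genes. None was DEx in limma, and the median was 0.18. The members were measured in the same rats and are not independent. Their mean level ran from 13.46 to 14.41 in heroin and from 13.08 to 14.13 in saline rats. Mbp, the myelin basic protein, ran from 18.46 over a median of 18.82 to 19.54 in heroin rats and from 17.88 over 18.66 to 19.19 in saline rats, a difference of 0.22 ± 0.19 (SE, n = 7 and 7, adjusted p = 0.6). Mobp, another myelin protein, differed by 0.26 and the tight junction protein Cldn11 by 0.09. Ranges overlapped for all 3. Leaving out 1 rat at a time moved the Mbp difference between 0.083 and 0.30. Cldn11 turned to -0.015 without heroin rat 11. Oligodendrocyte precursor and lineage markers, 9 named of 20, were higher in 7 and DEx in none, with a median of 0.05.

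The neuronal genes singled out by the naming rule did not pass the test. Syt2, the calcium sensor of fast transmitter release, ran from 12.21 over a median of 12.50 to 13.71 in heroin rats and from 10.78 over 12.14 to 12.82 in saline rats. All 7 heroin rats were above the saline mean, and the difference was 0.69 ± 0.30 (SE, n = 7 and 7, limma adjusted p = 0.21). Atp2b2, a plasma membrane calcium pump, was at 14.41 to 15.12 in heroin and 14.03 to 14.60 in saline rats, a difference of 0.32 ± 0.11 (adjusted p = 0.11). It passed without rat 27 (0.36, adjusted p = 0.044).

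Cplx1, a complexin of the release machinery, differed by 0.26, the pacemaker channel Hcn2 by 0.18, synapsin 1, Syn1, by 0.01 and the sodium channel Scn3a by -0.07 (limma adjusted p = 0.6, 0.64, 0.98 and 0.79). Adcy5, the adenylyl cyclase downstream of dopamine receptors, differed by -0.08, and the cytokine receptors Il17ra and Cntfr by -0.13 and -0.29 (adjusted p = 0.54, 0.32 and 0.31). Of 4 named presynaptic, 4 named excitability and 4 named glutamate neuron genes, 3 of each were higher and none was DEx, beside 993 of all 1995 named genes that were higher.

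The same drug comparison in the other vectors uses other libraries. In empty rats it gave 125 DEx genes (0.618%) and in H3.3Q5A rats 230 (1.14%). Of the 573 genes downregulated in H3.3 WT rats, 553 (96.5%) were also lower after heroin in empty rats, where 52.4% of all tested genes were lower, and 29 were DEx there. In H3.3Q5A rats 535 of the 573 (93.4%) were higher after heroin, beside 53.6% of all tested genes. All 78 upregulated genes were higher in empty rats as well.

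The fibroblast markers showed this order member by member. Their median heroin effect was -1.21 in H3.3 WT rats, -0.49 in empty rats and 0.57 in H3.3Q5A rats, with all 11 lower in the first 2 and all 11 higher in the last. Their names depend in part on saline H3.3 WT against saline empty rats, whose levels enter the first 2 of these effects. For pericyte and smooth muscle markers the medians were -1.14, -0.30 and 0.45. Myelin markers ran the other way in H3.3Q5A rats, with medians of 0.18, 0.44 and -0.57. Ptgds differed by -1.19 in empty rats and by 0.87 in H3.3Q5A rats (limma adjusted p = 0.078 and 0.16), and Acta2 by -0.52 and 0.55 (adjusted p = 0.4 and 0.34). Tgm2 differed by -0.12 and 0.07 in them (adjusted p = 0.79 and 0.88).

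**Figure D4:**
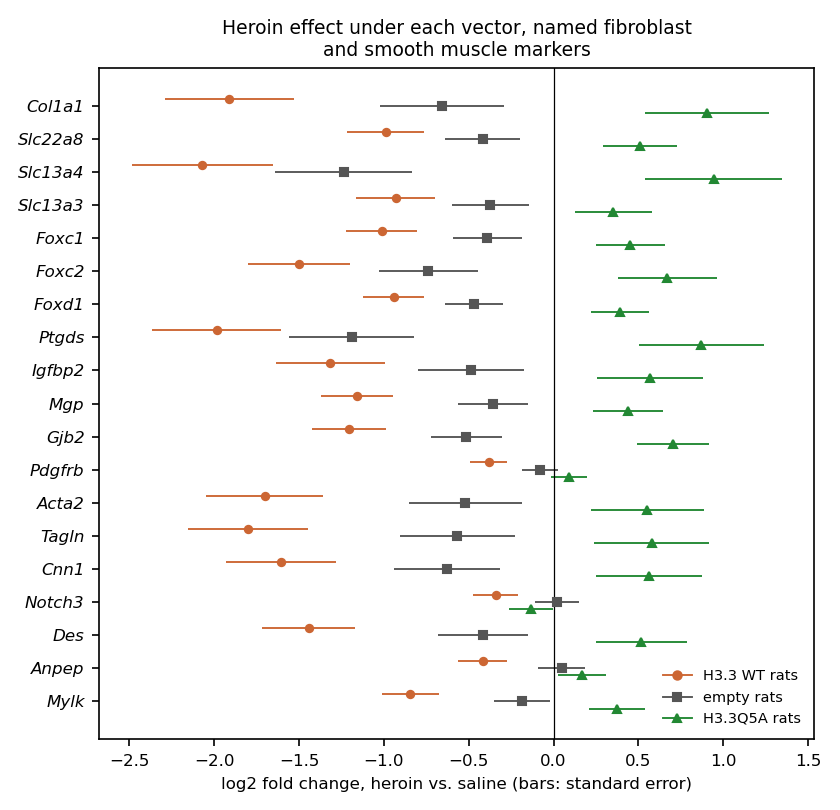
Log2 fold change of heroin vs. saline ± standard error (horizontal axis) for the 19 named fibroblast, pericyte and smooth muscle markers in H3.3 WT (orange), empty (gray) and H3.3Q5A (green) rats. Every one of the 11 fibroblast markers, Col1a1 to Gjb2, is lowest in H3.3 WT rats and above 0 in H3.3Q5A rats. Which markers have a name depends in part on the saline H3.3 WT values.

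The difference between heroin effects was tested as an interaction in the same limma fit. Between H3.3 WT and empty rats no gene passed, with a lowest adjusted p of 0.53, 1030 genes (5.09%) at an unadjusted p under 0.05 and also 0 calls by voom. With 1 and 3 leading residual factors in the model, 23 and 369 genes passed. These factors were drawn from the spread within the groups of these same values. They leave each fold change as it was and lower the error, which favors more calls, so the added calls are not a separate check. Between H3.3 WT and H3.3Q5A rats 1853 genes passed (9.16%), 1095 with the lower effect in H3.3 WT rats and 758 with the higher. They included all 11 named fibroblast markers, 6 of 8 pericyte and smooth muscle markers and 12 of 19 myelin markers, beside 238 of all 1995 named genes. The saline H3.3 WT rats, on whose values the names depend in part, enter this contrast. For Ptgds the heroin effect in H3.3 WT minus that in H3.3Q5A rats was -2.86 and for Acta2 the difference was -2.26 (adjusted p = 0.00057 and 0.0018). For Tgm2 the difference of -0.79 did not pass (adjusted p = 0.073).

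The 573 downregulated genes were chosen for high levels in saline and low levels in heroin H3.3 WT rats, which favors these groups at the ends of any order of group means. Over these genes, as a description, the mean of saline H3.3 WT rats was the highest of the 6 group means in 463, that of heroin H3.3Q5A rats in 83 and that of saline empty rats in 27. The lowest mean belonged to heroin H3.3 WT rats in 412 and to heroin empty rats in 147. Over all 20233 tested genes saline H3.3 WT rats had the highest mean in 19.7% and heroin H3.3 WT rats the lowest in 14.3%. The mean level of the 11 fibroblast markers had a median of 11.4 in saline H3.3 WT rats and of 9.72 in heroin H3.3 WT rats, against 10.3 and 9.70 in saline and heroin empty rats. It ran from 9.71 in rat 27 to 11.4 in the saline H3.3 WT group, and from 9.09 to 10.2 in the heroin H3.3 WT group. Rat 48, whose labels conflict, stood at 9.81, within the ranges of saline H3.3Q5A rats (9.55 to 10.7), saline H3.3 WT rats and heroin H3.3 WT rats.

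**Figure D5:**
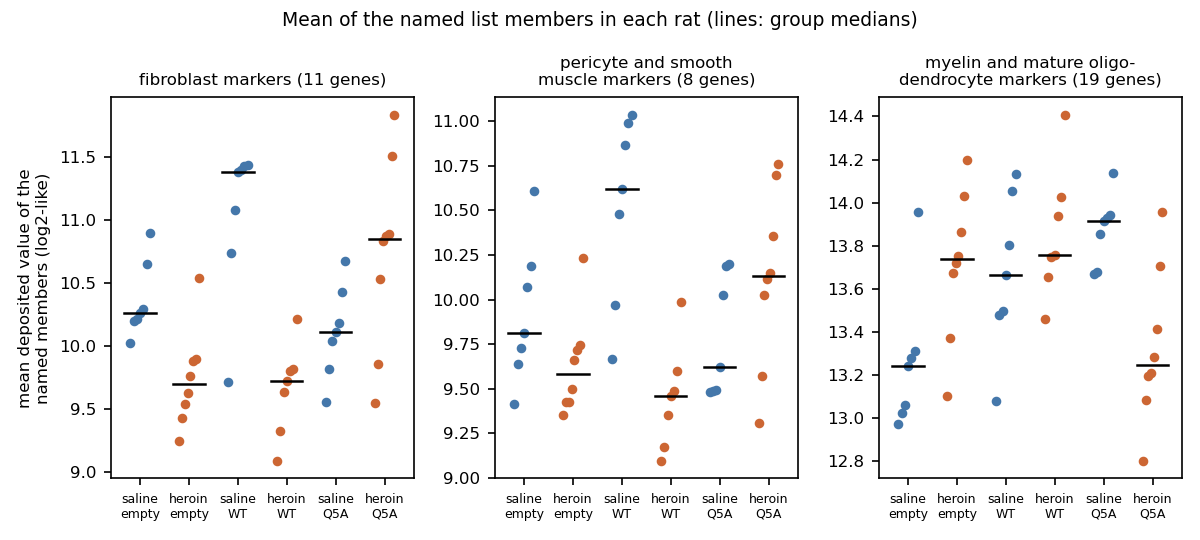
Mean level of the named fibroblast (11), pericyte and smooth muscle (8) and myelin (19) markers in each rat (vertical axis, log2-like) of the 6 groups, saline in blue and heroin in orange, with a line at the group median. The median of saline H3.3 WT rats is the highest of the 6 for the first 2 lists, with rat 27 far below it at 9.71 and 9.67, and the myelin values of the 2 H3.3 WT groups overlap. Which markers have a name depends in part on the saline H3.3 WT values, which favors that group at an end of the order.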

How the data were processed

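Per the labels, polyA RNA of each rat was sequenced as its own library. The authors aligned reads with HISAT2 2.1.0 to rn6, removed multiply aligned reads, counted the rest on Ensembl genes with featureCounts 2.0.1 and normalized with DESeq2 2.11.40.6. What was deposited are counts after a variance-stabilizing transformation, log2-like, with 6128 genes at the lowest value throughout, and no RUVr factor is subtracted. Strand use in counting is not given in the sources used here, so overlapping antisense genes cannot be told apart. Inverting the transformation returned reads (tolerance 0.05).

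Deposited log2 values were fitted with limma 3.58.1 in R 4.3.3, as means of 6 groups with a variance trend, on all 44 labeled libraries, and p-values were adjusted over 20233 genes. Single values were compared by exact permutation in scipy 1.17.1. The fit was tested on simulated data. No 2 libraries of a group were duplicates, with a lowest chi-square per gene of 14.7 in 42 pairs. Members, lists, motifs and naming rule were chosen with earlier results of these data known. Named were the 10 DEx genes of lowest p and the 5 of largest fold in each direction and DEx members of the lists. Up to 4 abundant members of the myelin and pituitary lists, which held no DEx gene, were added. So was a short list of H3.3, synaptic, excitability and cytokine receptor genes. Among the genes so selected, 1 is not reported here. Names and rn6 positions come from a table of the study that can be read in part only, so no set test was made. Alternatives were gene filters, scalings, residual factors, array weights, depth, voom, thresholds, both readings of rat 48 and leaving out each rat.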

Additional observations from a re-analysis of the deposited data

Results flagged for a closer look

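Of 132 groups of 7 values looked at, 18 held a rat whose gap to the rest passed Dixon's 95% criterion, where chance gives 6.6. The groups are genes measured in the same rats, many of which move together, so the flags are not independent and the excess is a description only. In 12 of the 18 groups the rat was saline rat 27. Its levels were 10.4 for Fbln1, 9.33 for Gjb2, 9.12 for Slc13a4, 9.92 for Col1a1, 10.5 for Igfbp2, 11.7 for Lamb2, 8.25 for Thbs2, 9.06 for Bmp6, 8.40 for Foxc1 and 10.1 for Id3, each below the other 6 saline H3.3 WT rats, and 11.7 for Ccdc82 and 8.94 for LOC102555727, each above them. Saline rat 49 stood above its group for Pdgfrb at 11.6, and heroin rat 1 for Mylk at 10.9. Heroin rat 11 stood above the other heroin H3.3 WT rats for Atp2b2 at 15.1, Syt2 at 13.7 and Cplx1 at 15.6, and below them for Scn3a at 11.1.

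The heroin effect differed between H3.3 WT and H3.3Q5A rats by a limma interaction in 1853 genes. The difference was -3.01 for Slc13a4, -2.86 for Ptgds, -2.82 for Col1a1, -2.38 for Tagln, -2.26 for Acta2 and 0.52 for Ccdc82. For neuronal genes it was 0.72 for Atp2b2, 0.83 for Hcn2, 1.77 for Syt2 and 1.02 for Cplx1.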

How the results depend on the processing

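No paired analysis was possible because the heroin and saline H3.3 WT rats share no rat number. The counts of DEx genes depended on the setting, while of the 573 downregulated genes 273 were called in each of the 14 fits that left out 1 rat. Those fits gave 377 to 1351 DEx genes, 24 to 340 upregulated and 350 to 1011 downregulated, with the highest counts without saline rat 27 and the lowest totals without saline rat 49. The total also moved by over 1.5 times without saline rats 4 (382), 8 (418) and 44 (410) and heroin rats 9 (408), 11 (410) and 38 (426). With no gene filter 432 genes were called (38 upregulated), and above the median level 320 (252 downregulated). Median centring gave 245 upregulated genes and 2881 in the interaction with H3.3Q5A. A single leading residual factor in the model gave 1094 DEx genes (254 upregulated) and interactions of 23 genes with empty and 2934 with H3.3Q5A, and 3 factors gave 1891 (543 upregulated, 1348 downregulated), 369 and 3803. Fitting only the groups compared left 281 (5 upregulated, 276 downregulated), counting rat 48 as saline H3.3 WT left 201 (5 and 196), and an FDR of 0.1 gave 160 upregulated genes. Residual factors were drawn from the spread within groups, so they change no fold change and lower the error, which favors more calls. The cause of the other moves was not tested. Array weights, depth as covariate, voom and quantile normalization kept the counts of DEx genes within 1.5 times. Without 1 rat, 10 to 11 fibroblast markers and 5 to 8 smooth muscle markers were called, and with rat 48 as saline H3.3 WT 9 and 5.

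Of results for single genes, 1620 kept their direction and side of the threshold, 185 lost and 14 gained a call and 12 changed sign. Signs changed for Syn1, which was at -0.031 after quantile normalization, -0.024 with array weights, -0.0075 with depth as covariate and -0.060 to 0.061 without 1 rat, and without 1 rat for Scn3a (-0.11 to 0.0074) and Cldn11 (-0.015 to 0.18). Calls of Pdgfrb, Cdh5, Fn1, Ccn1, Mmp14, Nid2, Slc13a3, Tgm2, the alpha globins and all 6 named upregulated genes were lost in at least 1 fit without 1 rat. Depth limits genes with few reads, and no gene set test was possible.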

Other observations

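Other lists with named members held no DEx gene. The integrins, with Itgb5, Itga7 and Itga1 of 17 listed, had a median of -0.08, and the single named immediate early gene, microglial marker and neurofilament or axon gene differed by -0.30, -0.04 and 0.16. The single named choroid plexus and ependymal marker differed by 0.19. The interferon, GABA neuron, opioid, lymphocyte, neighboring neuron, mitochondrial and cell cycle lists had no named member, so they could not be described. The library of rat 48 had levels of 14.8 for Ptgds, 9.35 for Slc13a4, 9.43 for Col1a1, 10.6 for Tagln and 10.2 for Acta2, each within the range of the 7 heroin H3.3 WT rats and also within that of the 7 saline H3.3Q5A rats, the group in its title. Its mean over the named smooth muscle markers was 9.66 and over the named myelin markers 13.7.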
